A study of Mus musculus with 12 samples.

Results

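The 34 genes described here are nuclear genes whose products copy, transcribe, cut, tail, stabilise or degrade the DNA and RNA of mitochondria. They were listed by name from what their products are known to do, and all 34 were found among the 48526 gene rows of the count tables. RNA was taken from whole intestinal epithelium of the proximal small intestine of 3-month-old female mice. In 2 mice both KAT2A and KAT2B, a pair of related lysine acetyltransferases, had been deleted after tamoxifen at 100 mg/kg given on each of 4 days, and 2 control mice were given the vehicle without tamoxifen. Tissue was collected 2 days after the last dose, so deletion and drug changed together and cannot be told apart. The driver of the deletion and the alleles the controls carried are not given in the sources used here. Each animal gave 3 libraries, namely the input RNA, the RNA precipitated with antibody J2 and the RNA precipitated with antibody K1, both of which bind long double-stranded RNA, which makes 12 libraries in 6 groups of 2.

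Mitochondrial DNA is a small circle that is transcribed from both strands into long RNAs, which are then cut at their transfer RNAs into messenger, ribosomal and transfer RNA. Because the strands are complementary, the long RNAs can pair, and a complex of the nuclease PNPase, encoded by Pnpt1, and the helicase SUV3, encoded by Supv3l1, degrades the unwanted strand. Every protein for these steps is encoded in the nucleus and imported, so the values below are those of the members' own nuclear transcripts and not of mitochondrial double-stranded RNA.

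Input libraries held 10307281 to 11474107 counts over genes, control pulldowns 13308021 to 16139531, and DKO pulldowns 2220291 to 5826361. Of the DKO pulldown libraries, 15.83% to 46.71% of the tallied fragments were set aside as aligned to more than 1 place, against 5.54% to 6.56% in the control pulldowns. Kat2b counts in input were 359 and 343 in control against 118 and 114 in DKO, and Kat2a counts were 222 and 228 against 84 and 148. Epithelial markers summed to 5890 to 5960 CPM (a gene's counts scaled for library depth) in control input and 5050 to 6130 in DKO input, with none of the 8 genes at 0. Of 16 proliferation markers 15 fell in DKO input, and of 15 stem cell markers 9 fell, with summed levels of 831 to 839 CPM against 295 to 388. Markers of fibroblasts, endothelium and muscle summed to 7.16 to 12.3 CPM in control input and 10.2 to 12.5 in DKO input, and those of leukocytes to 142 in both control libraries and 88.4 to 100 in DKO. In the pulldowns the fibroblast, endothelium and muscle sum was 11.4 to 53.3 CPM in control and 46.6 to 233 in DKO. The 2 DKO J2 libraries differed widely, with epithelial markers at 3290 to 11000 CPM and enterocyte markers at 8190 to 43500. The control J2 libraries gave 4120 to 4330 and 25000 to 27100. Over genes, chi-square per degree of freedom between the 2 libraries of a group was 84.4 in DKO J2 and 43 in DKO K1. It was 12.7 in control J2 and 22.7 in control K1. The part of these markers in any member's value was not tested.

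Per kilobase of exon, the members' transcripts in control input ran from 0.623 CPM per kb for Mterf4 to 20.2 CPM per kb for Tbrg4, with a median of 2.33. Tbrg4, a FASTK-family protein also called FASTKD4 that keeps certain mitochondrial messenger RNAs stable, stood at 20.2 ± 0.242 CPM per kb (SD, n = 2). Hsd17b10, a dehydrogenase that is also a subunit of mitochondrial RNase P, followed at 17.8 ± 0.424. Fastk was at 13.8 ± 0.392, Grsf1 at 10.1 ± 0.421 and Angel2 at 7.83 ± 0.0278. These 5 were separated from each other by more than the spread between their libraries. Endog at 6.88 ± 1.68 and Lrpprc at 6.87 ± 0.21 could not be ordered, and the spread of Endog reached Angel2. The length used joins all annotated exons of a gene, which for Lrpprc is 8504 bases against 4393 in its longest protein-coding transcript. The order thus also depends on the length chosen, which the SD does not measure. Neighbouring genes cover 35.2% of the exon bases of Mterf4 and 26.1% of those of Fastk. In DKO input the median of the 34 levels was 1.96 CPM per kb. Pnpt1 moved from 4.25 ± 0.297 to 10.6 ± 1.07 CPM per kb, with no overlap of the ranges given by the SD.

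**Figure D1:**
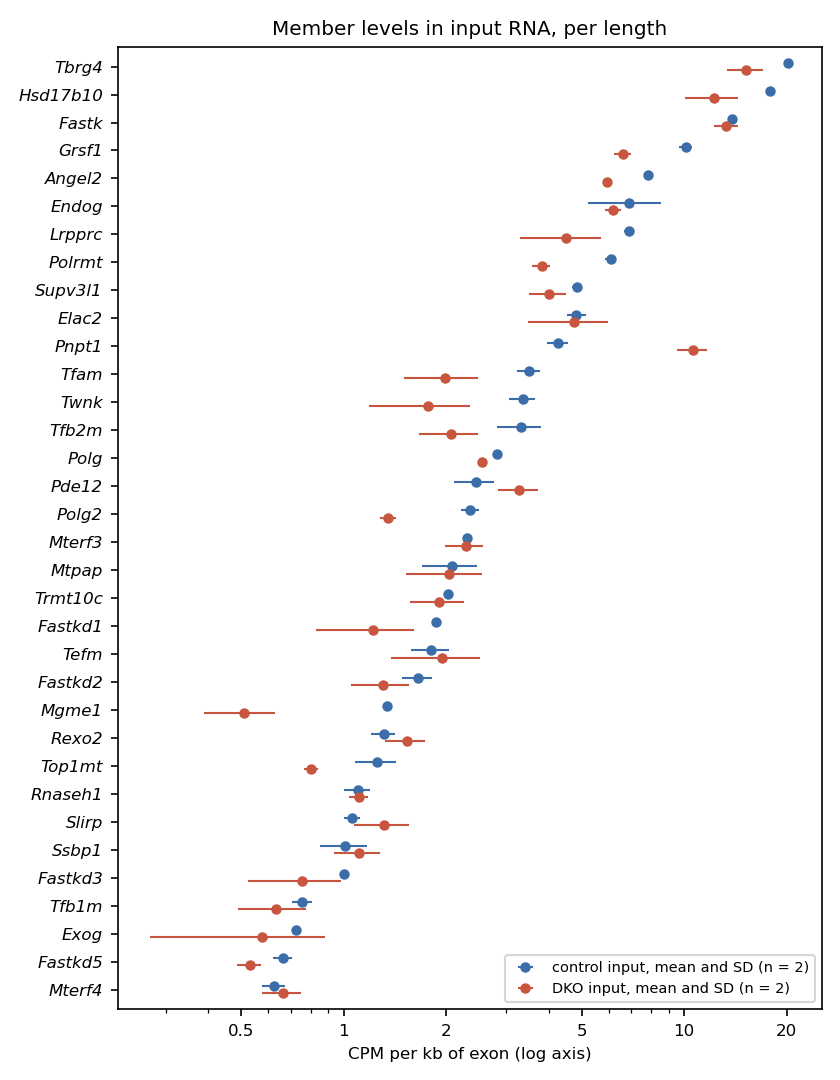
Level of each of the 34 members in the input libraries, in CPM per kilobase of exon on a log axis, ordered by the control mean; points are means and bars the SD of 2 libraries, blue for control and red for DKO. Control means run from 0.623 to 20.2, and the DKO mean of Pnpt1, 10.6, lies far to the right of its control mean, 4.25.

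Promoter sequence is shown first for 3 of the members called in input: the one that rose, Pnpt1, and a pair of those that fell, Tfam and Polrmt. The pair encode the main DNA-packaging protein and the RNA polymerase of mitochondria. The runs are from RefSeq on GRCm38.p6 and span 150 bases before to 20 bases after the start of transcription, with capitals on any match to the motifs described next. The Pnpt1 run is chr11:29130594-29130763 on the plus strand, the Tfam run chr10:71238025-71238194 on the minus strand, and the Polrmt run chr10:79746562-79746731 on the minus strand.
Pnpt1: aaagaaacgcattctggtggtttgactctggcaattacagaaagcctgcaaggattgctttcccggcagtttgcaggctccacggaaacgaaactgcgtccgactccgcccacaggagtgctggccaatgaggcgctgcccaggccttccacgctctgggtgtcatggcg
Tfam: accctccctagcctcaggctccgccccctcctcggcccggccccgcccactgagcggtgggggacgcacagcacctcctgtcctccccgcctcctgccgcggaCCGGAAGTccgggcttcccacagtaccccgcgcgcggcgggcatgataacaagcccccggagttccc
Polrmt: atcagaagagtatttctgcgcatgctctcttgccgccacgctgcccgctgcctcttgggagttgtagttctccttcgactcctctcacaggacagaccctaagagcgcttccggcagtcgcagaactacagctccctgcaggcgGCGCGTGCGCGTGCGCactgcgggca

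The capitals in Tfam mark the ETS-family letters CCGGAAGT, starting 47 bases before the start site. Those in Polrmt mark a pair of overlapping matches to the NRF1 motif, both on the strand opposite to the one printed. NRF1 and the ETS factor GABP are known regulators of nuclear genes for mitochondria. Windows of 250 bases before to 50 after the start were found in RefSeq for 30 of the 34 members, and both strands were searched. The ETS letters were in 7 of the 30 (Fastkd5, Pde12, Polg, Tefm, Tfam, Trmt10c and Twnk), against 4.31% of 27025 genes. The NRF1 motif was in 4 (Exog, Fastkd3, Polrmt and Rexo2), against 5.19% of genes, and the core of the interferon-stimulated response element was in 2 (Fastkd1 and Hsd17b10), against 3.99%. The Pnpt1 window held none of the 3 motifs in the forms searched. The interferon core was searched only as a 4-base repeat with exactly 2 bases between its copies. The printed Pnpt1 run holds the same repeat with a shorter gap, a form that was neither counted nor tested. Of the members with the ETS letters, Tfam and Twnk were called lower in input, and of those with the NRF1 motif, Polrmt was. The rest of both were not called. Mgme1, Polg2, Angel2, Lrpprc and Grsf1 fell in input with none of the 3 motifs, and Hsd17b10 with the interferon core alone. A match describes letters in a window and shows no binding.

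In input RNA, Pnpt1 rose and 9 members fell in DKO epithelium, while the other 24 did not pass the threshold. Over all 15088 genes tested, 35.9% passed, 18.8% higher and 17.1% lower, so the share of members called, 10 of 34, was no larger than that of genes at large, and the lower calls outnumbered the higher one. The median log2 difference was -0.26 over the members and 0.00 over all genes. Differences between genotypes were tested with edgeR's quasi-likelihood test, with p-values adjusted by Benjamini-Hochberg over all genes and called under 0.05; each is given as a log2 difference, DKO minus control, with its standard error (SE) and n = 2 animals a group. In these bulk samples, fewer cells of a type and less RNA per cell cannot be told apart. Without TMM scaling the median of all genes shifted to -0.13, the higher share of calls went from 52.4% to 42.1%, and 9 members were called, all of them shared with the 10.

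Pnpt1 (chr11:29130744-29161828, plus strand) encodes PNPase, the nuclease of the mitochondrial degradosome, and is also known as an interferon-induced gene. Its level was 15.7 and 14.2 CPM in the control inputs against 39.9 and 34.6 CPM in the DKO inputs, from 197, 197, 478 and 470 counts. Both DKO animals lay far above both controls, with no overlap. The difference was 1.36 (SE 0.14, adjusted p 0.00051), a 2.56-fold rise, and it passed the threshold under every alternative tried. Its helicase partner Supv3l1 was at 14 and 14.7 CPM in control against 10.8 and 12.9 CPM in DKO, a difference of -0.23 (adjusted p 0.332). Rexo2, which degrades the short RNA fragments left over, was at 4.7 and 4.18 CPM in control against 4.67 and 5.66 CPM in DKO, a difference of 0.26 (adjusted p 0.422). Of the 3 decay members, then, 1 passed the test.

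Among the factors that copy mitochondrial DNA, 2 of 5 fell. Twnk (chr19:45005663-45012762), the helicase that opens the DNA ahead of the polymerase, was at 14.2 and 12.6 CPM in control against 5.42 and 8.75 CPM in DKO. The Twnk difference was -0.87 (SE 0.25, adjusted p 0.0304). Polg2, the accessory subunit that holds the polymerase on its template, was at 9.79 and 10.7 CPM in control against 5.67 and 6.1 CPM in DKO, a difference of -0.76 (SE 0.20, adjusted p 0.021). For both genes each DKO library lay below each control library. The catalytic subunit Polg did not pass, at -0.11 (adjusted p 0.512), nor did the strand-binding protein Ssbp1 at 0.18 (adjusted p 0.554) or the topoisomerase Top1mt at -0.60 (adjusted p 0.152).

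Of the 4 nucleases that act on mitochondrial DNA, Mgme1, an exonuclease that trims DNA ends during replication, fell. Mgme1 was at 4.54 and 4.47 CPM in control against 1.42 and 1.98 CPM in DKO, from 57, 62, 17 and 27 counts. At -1.35 (SE 0.28, adjusted p 0.00932) it had the most negative difference of the 34. Rnaseh1, which removes the RNA strand of RNA-DNA hybrids, Endog and Exog ranged from -0.28 to 0.06 and none passed. Endog shares 35.7% of its exon bases with a neighbouring gene, and the counts were made without strand.

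The transcription machinery showed 2 of 5 members lower. Polrmt (chr10:79736123-79746581), the polymerase, was at 27.8 and 29.2 CPM in control against 17.1 and 18.6 CPM in DKO, a difference of -0.63 (SE 0.13, adjusted p 0.00908). Tfam (chr10:71225464-71238280), which packages mitochondrial DNA and bends its promoters, was at 16.4 and 14.7 CPM in control against 7.34 and 10.4 CPM in DKO, a difference of -0.77 (SE 0.21, adjusted p 0.0261). Neither gene's groups overlapped. Tfb2m, which melts the promoter for the polymerase, had a difference of -0.63 that did not pass (adjusted p 0.0736); the gene Gm1818 matches 48.5% of the Tfb2m transcript almost base for base. The elongation factor Tefm and the repressor Mterf3 were at 0.15 and 0.02.

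Members that act on RNA after transcription gave 4 further calls, all lower. Grsf1, a binding protein of mitochondrial RNA granules, was at 29.8 and 31.6 CPM in control against 19.2 and 20.9 CPM in DKO, a difference of -0.57 (SE 0.13, adjusted p 0.0122). Lrpprc, which stabilises messenger RNA, was at 59.7 and 57.2 CPM in control against 31 and 45.3 CPM in DKO, also at -0.57 (SE 0.18, adjusted p 0.0429). Hsd17b10 was at 23.6 and 22.8 CPM against 13.9 and 17.9 CPM, a difference of -0.50 (SE 0.16, adjusted p 0.0489). Angel2, a relative of the CCR4 deadenylases, was at 43.6 and 43.4 CPM against 32.7 and 33.2 CPM, at -0.36 (SE 0.11, adjusted p 0.0404). None of these 4 genes had overlapping groups. DESeq2 did not call Hsd17b10 (adjusted p 0.124) or Angel2 (adjusted p 0.182), nor Polg2 among the copying factors (adjusted p 0.0591), and Angel2 also missed without a filter on low counts (adjusted p 0.073). The other 6 members of the granule and FASTK group ranged from -0.57 for Fastkd1 to -0.02 for Fastk without a call, and neither of the ribosome assembly members, Tfb1m and Mterf4, passed. The deadenylase Pde12 was at 0.47 (adjusted p 0.0584), the poly(A) polymerase Mtpap at 0.02, and the RNase P and RNase Z members Trmt10c and Elac2 at -0.03 and 0.02. Slirp, the partner of Lrpprc, shares 97.8% of its exon bases with neighbouring genes, so only its counts are given, which were 43 and 44 in control against 55 and 48 in DKO.

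Leaving out an animal changed which of the lower members were called. Without control animal 1, 3 members were called (Pnpt1, Mgme1 and Polrmt); the 7 that were lost kept differences between -0.83 for Polg2 and -0.37 for Angel2, with larger SEs. Without control animal 2, 5 were called (Pnpt1, Mgme1, Twnk, Tfam and Lrpprc), and the 5 lost lay between -0.70 for Polg2 and -0.37 for Angel2, again with larger SEs. Without DKO animal 1, 5 were called (Pnpt1, Mgme1, Polg2, Polrmt and Grsf1), and the size itself moved in part: Lrpprc was at -0.32 (adjusted p 0.0755), Hsd17b10 at -0.33 (adjusted p 0.105), Twnk at -0.57 (adjusted p 0.0525), Tfam at -0.54 (adjusted p 0.0502) and Angel2 at -0.34 (adjusted p 0.0696). Without DKO animal 2 there were 15 calls, the original 10 among them, with Lrpprc at -0.88 and Twnk at -1.27. On thinned counts Tfam was at -1.27 and Grsf1 at -0.95, both called. Twnk, Polg2, Polrmt, Lrpprc, Hsd17b10 and Angel2 were not called, with adjusted p from 0.0633 to 0.234. Mgme1 had too few thinned counts to be tested, and 26 members were tested there. In a fit of all 12 libraries 1 member was called, Pnpt1.

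**Figure D2:**
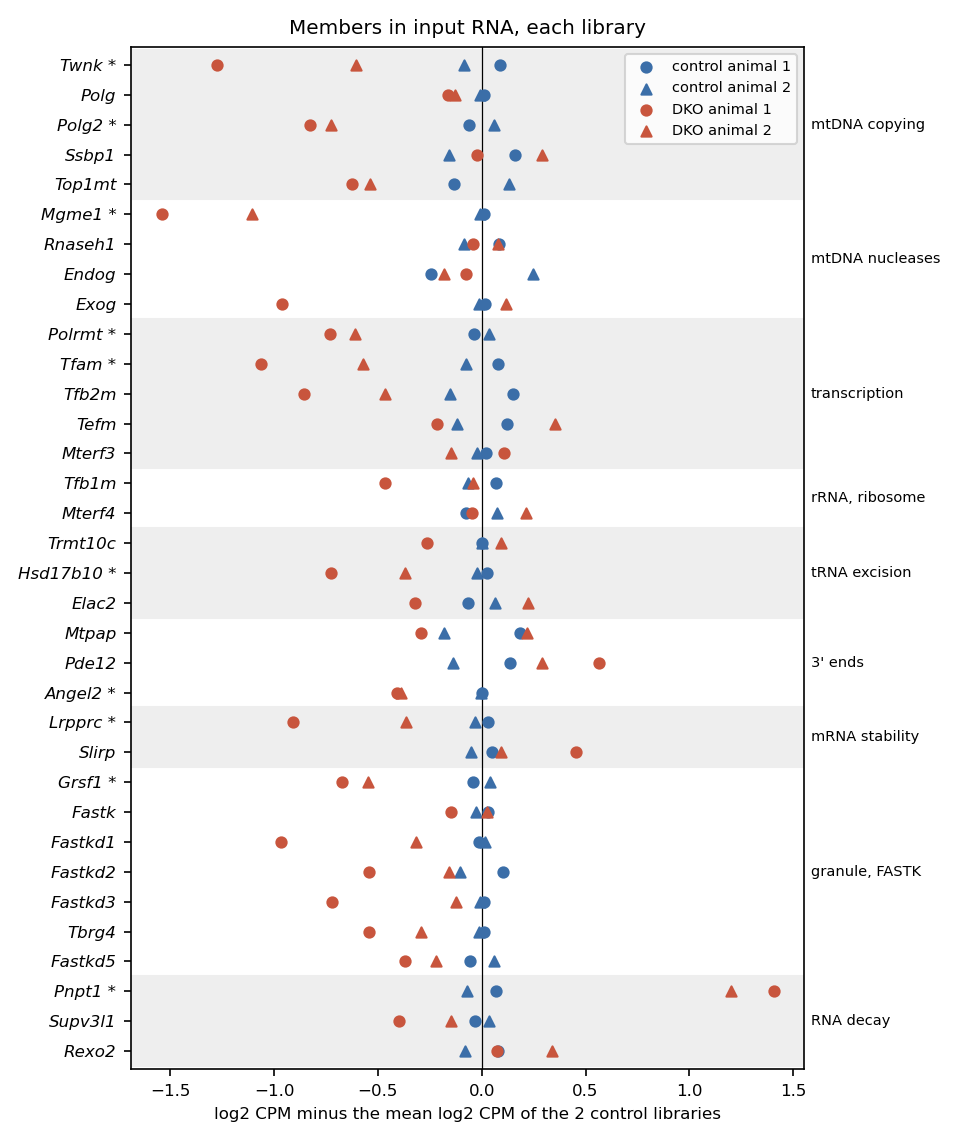
Log2 CPM of each member in the 4 input libraries minus the mean of the 2 control libraries, grouped by role; blue is control, red is DKO, circles are animal 1 and triangles animal 2 of each genotype, and an asterisk marks an adjusted p under 0.05. Pnpt1 alone stands well to the right, with a tested difference of 1.36, and 9 members with asterisks lie to the left, Mgme1 farthest at -1.35.

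Other nuclear genes for mitochondria were counted in input beside the members. The lists of other DNA maintenance, RNA modification, translation factors, aminoacyl-tRNA synthetases and biogenesis regulators held 71 nuclear genes. Of these, 69 were tested, 2 rose and 15 fell, with a median of -0.29. Over all 15088 genes tested in input, 18.8% were called higher and 17.1% lower, with a median of 0.00. The counts by list below stand beside the same shares. The pair that rose were Rrm2b, a subunit of ribonucleotide reductase, at 0.92 (adjusted p 0.0276), and the mitochondrial tryptophan synthetase Wars2 at 0.81 (adjusted p 0.0117). The most negative were Ears2, the glutamate synthetase, at -1.79 (adjusted p 0.00199) and Tymp, thymidine phosphorylase, at -1.37 (adjusted p 0.000982). Among the 17 synthetases 1 rose and 6 fell, among the 12 translation factors 2 fell, among the 18 RNA modification genes 1 fell, and among 15 tested genes of other DNA maintenance 1 rose and 4 fell. Of the 7 biogenesis regulators, the coactivator gene Ppargc1a fell at -0.95 (adjusted p 0.00155) and Gabpa, which encodes the ETS subunit of GABP, fell at -0.60 (adjusted p 0.0137). Of the 13 protein-coding genes of mitochondrial DNA itself, 3 fell, with a median of -0.39.

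The pulldowns ask which transcripts are over- or under-represented after precipitation. In control epithelium J2 RNA held 6 members above input and 4 below, with background shares over all 15923 genes of 29.8% in either direction, 15.2% higher and 14.6% lower. The members' median log2 enrichment, pulldown minus input, was -0.10 against -0.07 over all genes. Without TMM scaling the higher share of calls went from 51.1% to 34.6% and the members' calls to 2 higher and 4 lower, with the median of all genes at -0.44.

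Tbrg4 (chr11:6615598-6626067) was the most enriched member with J2. It stood at 75.4 and 74.1 CPM in control input and 289 and 305 CPM in control J2, a log2 enrichment of 2.00 (SE 0.28, adjusted p 0.00331). A small nucleolar RNA gene, Snora5c, covers 3.4% of its exon bases. Fastkd1, another family member, went from 10.8 and 11 CPM in input to 28.5 and 29.6 CPM in J2, an enrichment of 1.41 (SE 0.37, adjusted p 0.0239). Fastk, the founder of the family, went from 61.7 and 59.2 CPM to 155 and 152 CPM, an enrichment of 1.35 (SE 0.23, adjusted p 0.00565), with 26.1% of its exon bases shared with Slc4a2. In all 3 genes the pulldown libraries lay above the inputs with no overlap. Twnk at 1.08 (adjusted p 0.0385), Angel2 at 0.81 (adjusted p 0.0199) and Grsf1 at 0.64 (adjusted p 0.0462) made up the other higher calls. Mrpl43, on the other strand, covers 12.6% of the exon bases of Twnk.

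Below input in control J2 were Pnpt1 at -1.07 (adjusted p 0.0153), Hsd17b10 at -0.98 (adjusted p 0.0343), Polg2 at -0.89 (adjusted p 0.037) and Slirp. Pnpt1 stood at 7.89 and 6.23 CPM in the J2 libraries against 15.7 and 14.2 CPM in the inputs, below both. Ssbp1 went from 9.39 and 7.5 CPM to 2.81 and 3.48 CPM, an enrichment of -1.42 that was not called, and Slirp had 4 and 2 counts in J2. When input and pulldown of the same animal were paired, 7 of the 10 calls held; Hsd17b10 (adjusted p 0.0532), Polg2 (adjusted p 0.0563) and Grsf1 (adjusted p 0.0747) did not. On thinned counts Fastkd1, Twnk, Angel2, Grsf1, Pnpt1 and Polg2 did not pass, with adjusted p from 0.0773 to 0.208. No call of a member by edgeR held without control animal 1 or control animal 2. The members' median was -0.09 without control animal 1 and 0.01 without control animal 2. In those fits the spread came from the DKO animals' libraries alone, so they do not measure how well the control animals agree. DESeq2 on all libraries called 11.

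With K1 in control epithelium 8 members were above input and 4 below, where 39.8% of 15908 genes were called, 19.7% higher and 20.1% lower. The median enrichment was 0.25 over members and 0.00 over all genes. Top1mt, the mitochondrial topoisomerase, went from 2.31 and 2.81 CPM in input to 8.57 and 10.1 CPM in K1, an enrichment of 1.78 (SE 0.31, adjusted p 0.0017). Tbrg4 reached 200 and 204 CPM, an enrichment of 1.35 (SE 0.21, adjusted p 0.00101), and Twnk 29.5 and 35.3 CPM, an enrichment of 1.19 (SE 0.37, adjusted p 0.0273). Each of these 3 genes had both K1 libraries above both inputs. The other higher calls were Fastkd1, Polg, Elac2, Grsf1 and Fastk, from 0.66 to 0.81.

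On the low side, Ssbp1 was at 2.59 and 2.24 CPM in K1, an enrichment of -1.87 (SE 0.45, adjusted p 0.00852). Mterf3 went from 11.5 and 11.1 CPM in input to 4.44 and 4.55 CPM in K1, an enrichment of -1.40 (SE 0.40, adjusted p 0.0182), and Polg2 was at -1.01 (adjusted p 0.0265). Slirp had 9 counts in each K1 library. Paired by animal, all 12 calls held and 2 were added, Pde12 at 0.52 (adjusted p 0.0363) and Pnpt1 at -0.54 (adjusted p 0.0412). DESeq2 did not call Elac2, Fastkd1 or Grsf1 (adjusted p 0.0562 to 0.0879), and on thinned counts these 3, Fastk, Polg, Twnk, Mterf3 and Polg2 did not pass (adjusted p 0.107 to 0.386). The higher share of K1 calls went from 49.6% to 35.9% without TMM scaling, with members at 2 higher and 6 lower and the median of all genes at -0.23. No call of a member by edgeR held without either control animal, against 11 called by DESeq2 on all libraries. The members' median was 0.20 without control animal 1 and 0.14 without control animal 2. The spread in those fits again came from the DKO animals' libraries alone, so they do not measure agreement between the control animals.

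**Figure D3:**
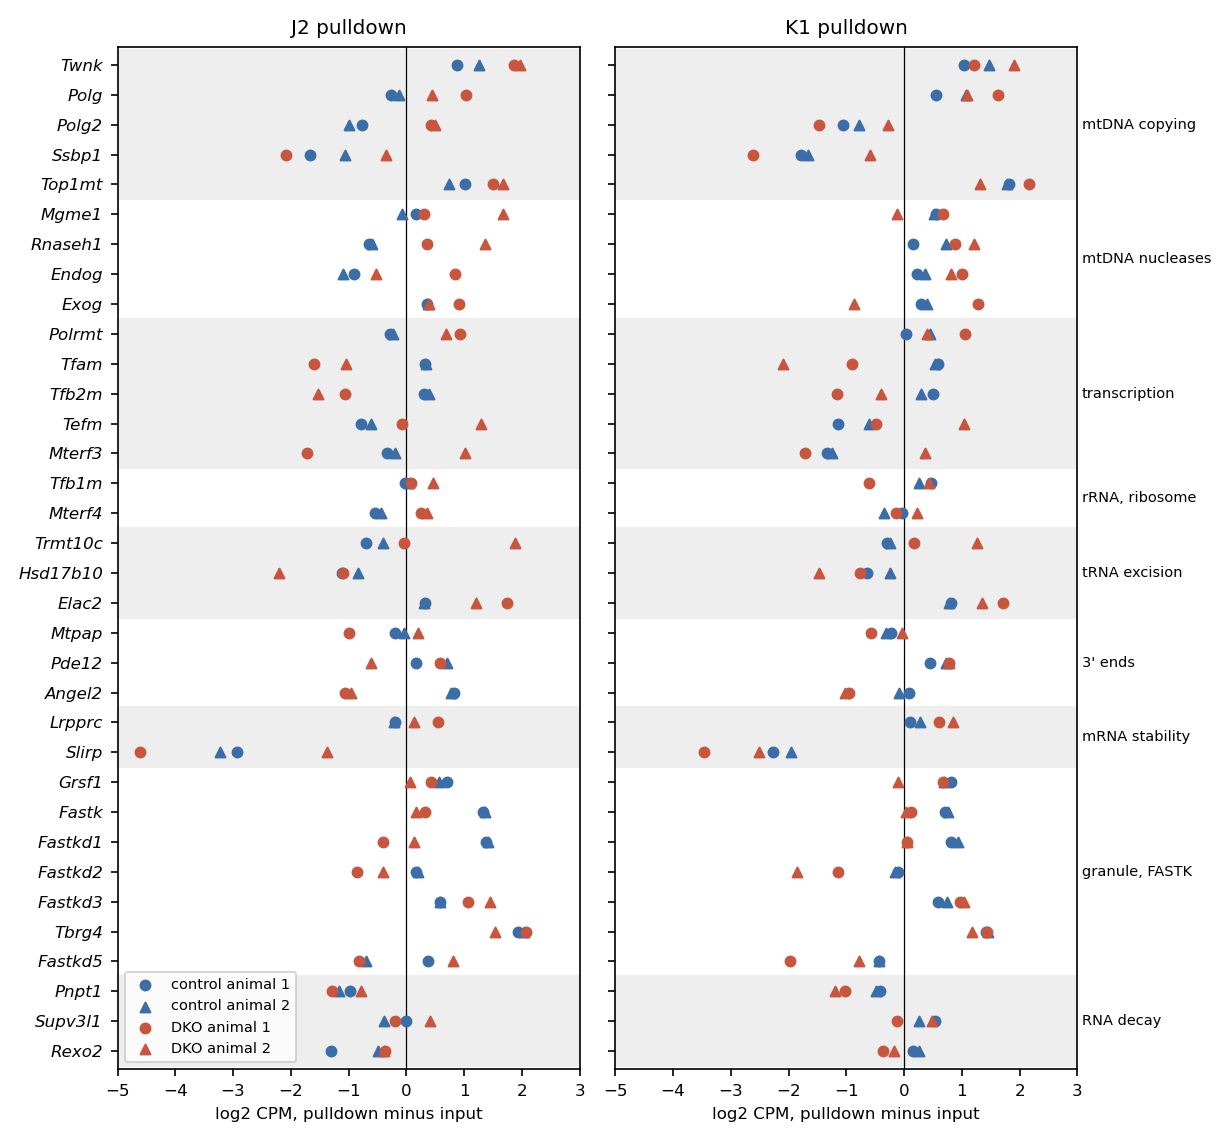
Log2 CPM in the pulldown minus log2 CPM in the input of the same animal for each member, with J2 and K1 in separate panels; blue is control, red is DKO, and each point is 1 animal (circles animal 1, triangles animal 2). Tbrg4 and Twnk lie to the right in all 4 animals, whereas the DKO points of Tfam and Angel2 lie to the left of 0 and of their control points in both panels.

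In DKO epithelium J2 RNA held 7 members above input and 6 below, where 25.7% of genes were called, 12.2% higher and 13.4% lower. Twnk was at 20.4 and 34.5 CPM in J2, an enrichment of 1.98 (SE 0.35, adjusted p 0.0079), and Tbrg4 at 215 and 177 CPM against 51.3 and 61.1 CPM in input, an enrichment of 1.83 (SE 0.28, adjusted p 0.00547). Top1mt at 1.72, Elac2 at 1.49, Fastkd3 at 1.35, Polrmt at 0.84 and Polg at 0.80 were the other higher calls. Lower were Hsd17b10 at -1.61, Tfb2m at -1.35, Tfam at -1.29, Pnpt1 at -1.01, Angel2 at -0.99 and Slirp. Pnpt1 was thus below input in both genotypes with J2 while its level in the J2 libraries was 16.3 and 20 CPM in DKO against 7.89 and 6.23 CPM in control. Pairing by animal removed the calls of Polg (adjusted p 0.0688) and Slirp (adjusted p 0.0638). On thinned counts Fastkd3, Polg, Polrmt, Top1mt, Tfam and Tfb2m did not pass (adjusted p 0.053 to 0.221). Without TMM scaling 4 members were called, 1 higher and 3 lower, and the higher share over all genes went from 47.6% to 21.1%. Leaving out control animal 1 or 2 left 0 members called by edgeR, with 11 and 10 at an unadjusted p under 0.05 and 13 by DESeq2 on all libraries.

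With K1 in DKO, 7 members were above input and 6 below, where 35.6% of genes were called, 14.6% higher and 21.0% lower. Top1mt at 1.88, Twnk at 1.56, Elac2 at 1.43, Polg at 1.31, Tbrg4 at 1.22, Pde12 at 0.70 and Polrmt at 0.69 were higher. Fastkd2 at -1.62, Tfam at -1.55, Hsd17b10 at -1.20, Pnpt1 at -1.17, Angel2 at -1.07 and Slirp, with 1 count in each library, were lower. Paired by animal, all 13 calls held and 4 were added, namely Lrpprc at 0.64 (adjusted p 0.0187), Endog at 0.87 (adjusted p 0.0212), Fastkd3 at 0.95 (adjusted p 0.0305) and Ssbp1 at -1.56 (adjusted p 0.011). On thinned counts Hsd17b10 (adjusted p 0.0507) and Polrmt (adjusted p 0.113) did not pass. The higher share of calls went from 41.1% to 22.3% without TMM scaling, with members at 4 higher and 8 lower. Both RNase Z, encoded by Elac2, and the polymerase subunit gene Polg had their DKO pulldown libraries above both DKO inputs with each antibody.

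Whether enrichment itself differed between genotypes was tested as DKO enrichment minus control enrichment. With J2 this difference was called for Angel2 alone among the 34, where 2.71% of 15923 genes were called, 0.772% higher and 1.94% lower. The median over members was 0.45 and over all genes 0.00. Angel2 (chr1:190925112-190946962) gave 1125 and 921 counts with J2 in the controls against 61 and 55 in the DKO animals, or 77.2 and 74.5 CPM against 15.6 and 17 CPM. Within each animal its J2 minus input value was 0.82 and 0.78 in control against -1.06 and -0.96 in DKO. Control animals were above 0 and DKO animals below 0, and the difference was -1.80 (SE 0.29, adjusted p 0.0342). It did not pass when input and pulldown were paired by animal (adjusted p 0.0712, when 0 genes were called by edgeR against 4074 at an unadjusted p under 0.05), without TMM scaling (adjusted p 0.0753), on thinned counts (adjusted p 0.0527), or without control animal 1 (adjusted p 0.738) or control animal 2 (adjusted p 0.676). The higher share of all calls was 28.5% with TMM, 10.5% without it and 37.0% by DESeq2, which called 7 members.

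With K1 the difference was called for Tfam alone, where 5.47% of 15908 genes were called, 1.37% higher and 4.10% lower. The median over members was -0.07 against -0.20 over all genes. For the members it was 0.01 without DKO animal 1 and -0.23 without DKO animal 2. Tfam gave 403 and 286 counts with K1 in the controls against 16 and 5 in the DKO animals, or 24.9 and 21.3 CPM against 3.8 and 2.26 CPM. Its K1 minus input value was 0.59 and 0.53 in the control animals and -0.91 and -2.10 in the DKO animals, which did not overlap. The difference was -2.05 (SE 0.44, adjusted p 0.0313). It was -1.49 on thinned counts (adjusted p 0.179), -2.03 without control animal 1 (adjusted p 0.615) and -2.13 without control animal 2 (adjusted p 0.34), none of which passed. Paired by animal, 2 members were called, Tfam and Angel2, the latter at -0.99 (adjusted p 0.0344) against -0.996 (adjusted p 0.0554) unpaired, while calls over all genes went from 870 to 1912. The higher share of calls was 25.1% with TMM, 13.2% without it and 39.1% by DESeq2.

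Values with the other antibody follow for Tfam and Angel2, and with both for Tfb2m, Polrmt and Polg2, from libraries that share the inputs. Tfam had a J2 minus input value of 0.32 and 0.34 in control against -1.60 and -1.04 in DKO, a difference of -1.63 that was not called (adjusted p 0.107). Angel2 with K1 was at 0.08 and -0.08 in control against -0.95 and -1.02 in DKO. Tfb2m with J2 was at 0.31 and 0.40 against -1.06 and -1.53, a difference of -1.71 (adjusted p 0.0795). With K1 the Tfb2m difference was -1.27 (adjusted p 0.198). In the other direction, Polrmt with J2 was at -0.29 and -0.23 against 0.93 and 0.69, a difference of 1.1 (adjusted p 0.0763). Polg2 with J2 was at -0.76 and -0.99 against 0.42 and 0.49, a difference of 1.39 (adjusted p 0.0844). With K1 the difference was 0.51 for Polrmt (adjusted p 0.393) and 0.01 for Polg2. None of Tfb2m, Polrmt and Polg2 was called by this test with either antibody. For the 13 protein-coding genes of mitochondrial DNA, the products on which these factors act, the J2 difference was called higher in 3 with a median of 2.38, and the K1 difference in 11 with a median of 3.44.

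Compared directly within the pulldowns, DKO minus control, 3 members were lower and none higher in J2, where 12.2% of 13181 genes were called, 6.02% higher and 6.16% lower. Slirp had too few counts to be tested, which leaves 33 members with a median of 0.17 against 0.03 over all genes. The members' median was 0.51 without DKO animal 1 and -0.37 without DKO animal 2, so its direction depended on the animal left out. Tfam fell by 2.37 (SE 0.54, adjusted p 0.0497), from 298 and 231 counts to 9 and 16. Tfb2m fell by 2.35 (SE 0.46, adjusted p 0.0397), from 186 and 136 counts to 9 and 7, and Angel2 fell by 2.16 (SE 0.32, adjusted p 0.0299). All 3 genes had DKO libraries below control libraries after scaling for depth. None of them was called without control animal 1 or 2, when edgeR called 0 members and 3 and 4 had an unadjusted p under 0.05, against 4 called by DESeq2 on all libraries. On thinned counts Tfam (adjusted p 0.124) and Tfb2m (adjusted p 0.0527) did not pass. Without TMM scaling 1 member was called and the higher share of calls was 32.7% in place of 49.4%.

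In K1, 1 member was higher and 4 lower, where 27.1% of 12888 genes were called, 13.2% higher and 13.9% lower. The median was -0.25 over 33 members and -0.02 over all genes. For the members it was 0.21 without DKO animal 1 and -0.39 without DKO animal 2, so its direction depended on the animal left out. Elac2 (chr11:64979038-65002069), which cuts the 3′ ends of transfer RNAs, stood at 28.3 and 30 CPM in the K1 libraries of controls against 44.4 and 50.3 CPM in those of DKO animals, a rise of 0.90 (SE 0.27, adjusted p 0.0444). Tfam fell by 2.69 (SE 0.39, adjusted p 0.00486), and this call held under every alternative tried. Fastkd2 fell by 1.59 (SE 0.45, adjusted p 0.0374), Fastkd1 by 1.30 (SE 0.39, adjusted p 0.0443) and Angel2 by 1.21 (SE 0.28, adjusted p 0.0198). Without TMM scaling the higher share of calls went from 48.6% to 27.4%, the median of all genes to -0.39, and Elac2 was at 0.54 (adjusted p 0.2). Elac2 was at 0.85 (adjusted p 0.451) without control animal 1, 0.89 (adjusted p 0.397) without control animal 2, 0.70 (adjusted p 0.145) without a filter and 0.95 (adjusted p 0.0582) by DESeq2. DESeq2 called neither Fastkd1 (adjusted p 0.0661) nor Fastkd2 (adjusted p 0.0896), and on thinned counts both missed (adjusted p 0.119 and 0.102), as did Angel2 (adjusted p 0.0839). The members' calls were 0 higher and 9 lower without TMM scaling and 3 higher and 1 lower on thinned counts. Without DKO animal 1 Fastkd1 was at -0.91 (adjusted p 0.0549). Leaving out either control animal left 1 member called, Tfam.

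**Figure D4:**
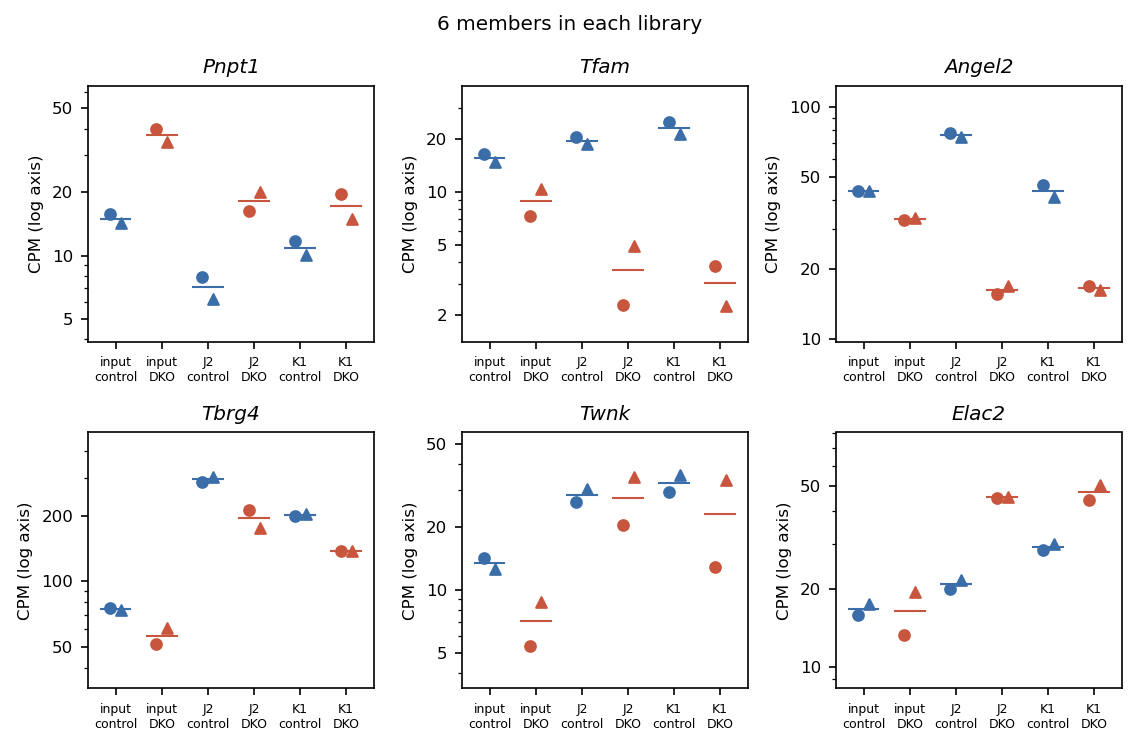
CPM of Pnpt1, Tfam, Angel2, Tbrg4, Twnk and Elac2 in all 12 libraries on a log axis, with 1 panel a gene and the input, J2 and K1 libraries side by side; blue is control, red is DKO, circles and triangles are animals 1 and 2, and horizontal lines are group means of 2. Pnpt1 is higher in DKO in input, Tfam and Angel2 are lowest in the DKO pulldowns, and Tbrg4 is above its input in the pulldowns of both genotypes.

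Across all 9 comparisons, without pairing, 23 members were called at least once and 11 in none, the latter being Rnaseh1, Endog, Exog, Tefm, Tfb1m, Mterf4, Trmt10c, Mtpap, Fastkd5, Supv3l1 and Rexo2. The members lie on 17 chromosomes, 5 of them on chromosome 11. Neighbouring genes cover over 20% of the exon bases of 6 members, namely Slirp, Endog and Fastk, given above, and Fastkd5 (65.2%), Mterf4 (35.2%) and Mtpap (22.1%), whose counts are uncertain for that reason. Some overlap was present in 17 members, among them Twnk (12.6%, Mrpl43), Polg (8.6%, Fanci) and Top1mt (4.7%, Gm15945), each with a gene on the other strand. Fastkd1, Angel2 and Grsf1, also above input in control J2, had none. The part of such neighbours in the pulldown values was not tested. GC content of their transcripts ran from 40.6% to 64.3%, with a median of 48.0%. Over the 33 members other than Slirp, Spearman's rho between GC content and log2 enrichment was 0.15 in control J2, 0.49 in control K1 and 0.57 in the DKO pulldown of either antibody, while over all genes the same 4 values were 0.05, 0.23, 0.33 and 0.37. For the genotype difference in input it was -0.34 over members and 0.04 over all genes. These are descriptions across genes, which share the same libraries and are not independent replicates.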

How the data were processed

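Input RNA and J2 and K1 pulldown RNA of 2 control and 2 DKO mice were sequenced after ribosomal RNA depletion and random priming, per the labels' protocols. The deposited values are raw counts per gene and library; the submitters' processing notes name STAR 2.7.10b, UMI-tools 1.1.4, SAMtools 1.17, HTSeq 2.0.2 and the build mm10 (GRCm38.p4), without their order. Whether the deposited counts were made after removal of duplicates is not given in the sources used here. Replicates are different animals, and reads that counted for no gene stayed out of library sizes. Symbols and coordinates came from GENCODE M21 (GRCm38), matched by identifier without version; 25 of 34 members had the same version.

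Counts were fitted with edgeR 4.0.16 in R 4.3.3 (TMM scaling, filterByExpr with a minimum count of 10, quasi-likelihood test, Benjamini-Hochberg adjustment over all genes, threshold 0.05), with 4 libraries for DKO against control and 8 for enrichment and its difference. SE is the log2 difference divided by the root of the test's F. CPM values use TMM over all 12 libraries, and log2 CPM a prior count of 2. The code of the fits was run on simulated counts with the same spread in all genes and libraries. That simulation did not copy the wider spread between the DKO pulldown libraries, so it gives no error rate for these data. Near-identical sequence was found with blastn 2.17.0 (97% identity over at least 100 bases).

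Input and pulldown come from the same animals, and their deviations from group means correlated at 0.54 and 0.369 (J2, control and DKO) and 0.562 and 0.414 (K1) over 9823 genes. Alternatives were no TMM, DESeq2 1.42.0, no filter, counts thinned to the shallowest library (2220291), blocks, a fit of all 12 libraries and leaving out each animal. Named with values by rule are members called in input or in a difference, the 3 highest and lowest members by enrichment in control, and all decay members. Values of further members, called or not, such as Tfb2m and Elac2, were given outside this rule. Genes of other lists were named by size of difference among those called, at most 2 in each direction. The biogenesis regulators are the exception and were named after their values were seen. The members and lists were chosen with earlier results of these data known.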

Additional observations from a re-analysis of the deposited data

Results flagged for a closer look

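For a pair of members the difference between DKO and control animals was not the same in input and pulldown, by the test of that difference. Angel2 had a J2 difference of enrichment, DKO minus control, of -1.80, and Tfam had a K1 difference of -2.05. Each was the only member of the 34 called with its antibody. Over all genes 2.71% were called with J2 and 5.47% with K1. Neither call held on thinned counts, and that of Angel2 did not hold with input and pulldown paired by animal. Both DKO pulldown groups are the shallowest of the study, with 2220291 to 5826361 counts a library, and Angel2 rests there on 61 and 55 counts and Tfam on 16 and 5. The share of tallied fragments aligned to more than 1 place in these libraries, 15.83% to 46.71%, also moved with the comparison, and its part in the result was not tested.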

How the results depend on the processing

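For members called in a comparison, and the 2 uncalled decay members in input, 431 recomputed values kept direction and side of the threshold, 214 kept direction without passing and none of these reversed; other uncalled members were not tallied. Members dropped by the count filter of an alternative, as Mgme1 was on thinned input counts, are not in this tally. The cause of the moves below was not tested, except that thinning leaves fewer counts and genes. Counts of genes and of members called moved by over 1.5 times as follows. In input they were 3378 and 3 on thinned counts and 1675 and 1 in the fit of all 12 libraries. For DKO against control in J2, 1 member was called without TMM, 2884 genes by DESeq2, 4273 and 5 without a filter, 1 member on thinned counts and 5984 and 14 with all 12 libraries. In K1, members numbered 9 without TMM, 2 by DESeq2, 8 without a filter and 10 with all 12 libraries. For enrichment in control, J2 gave 6 members without TMM and 2560 and 4 on thinned counts, and K1 gave 2983 and 3 on thinned counts. In DKO, J2 gave 4 members without TMM and 2003 and 6 on thinned counts, and K1 3548 genes on thinned counts. The J2 difference gave 669 and 0 without TMM, 2018 and 7 by DESeq2, 2453 and 5 without a filter, 137 and 0 on thinned counts and 0 and 0 with the animal as a block; the 0 counts of members stand beside 6, 8 and 13 at an unadjusted p under 0.05. The K1 difference gave 2 members without TMM, 1763 genes without a filter, 263 and 0 on thinned counts (5 unadjusted) and 1912 and 2 with the animal block, which ended no call of a member beyond those given above.

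Leaving out 1 animal, with the lone sample assumed to vary like the other groups, gave 3615 to 6226 genes and 3 to 15 members in input, 177 to 8635 and 0 to 19 in J2, and 1149 to 5819 and 1 to 13 in K1. For enrichment the ranges were 0 to 10139 and 0 to 23 (J2 control), 337 to 7791 and 0 to 17 (J2 DKO), 281 to 9189 and 0 to 18 (K1 control), 3005 to 5970 and 11 to 18 (K1 DKO), 0 to 6990 and 0 to 17 (J2 difference) and 0 to 3802 and 0 to 8 (K1 difference). The low ends came without a control animal and the high ends without a DKO animal. DKO and control animals share only a replicate number (correlation 0.042 in input, -0.152 in J2, -0.156 in K1); with that number as a replicate block, 5732, 2262 and 3377 genes and 11, 4 and 4 members were called, with Angel2 in input (adjusted p 0.0527) and Elac2 (0.064) and Fastkd2 (0.0735) in K1 no longer among them, and Pde12 and Tbrg4 in input, Fastkd1 in J2 and Tfb2m in K1 added. Leaving Slirp out of the members, an alternative chosen after seeing the data, gave medians of -0.28 in input, 0.40 for the J2 difference and -0.06 for the K1 difference.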
